A study of Homo sapiens with 9 samples.

Results

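Overexpression of the kinase PLK2 was compared with an empty vector in HEK293T cells, a human embryonic kidney line labelled as epithelial that takes up plasmids readily. The comparison uses 6 of the 9 RNA libraries of the study, chosen by their labels: 3 of cells given the FLAG vector alone (Vector) and 3 of cells given PLK2. All are labelled wild type, no time after transfection is given, and libraries within a group are, per the submitters, biological replicates, 3 in each. The other 3 libraries, of cells given PLK2(D223N), are used only where stated. The study's title concerns PLK2, HSP90α and IKKβ in microglia, and its design asks which transcripts change with PLK2.

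PLK2 is a serine/threonine kinase of the polo-like family. It is induced by serum, synaptic activity and DNA damage, is a p53 target, and takes part in centriole duplication. NF-kB, the pathway that IKKβ activates, is a set of dimeric transcription factors held in the cytoplasm by IkB proteins until IKK kinases release them. Its non-canonical branch works through RELB and NFKB2. Several of its target genes, such as TNFAIP3 and NFKBIA, encode inhibitors that shut it down again.

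Libraries held between 14288165 and 16510186 estimated counts. Of 17083 genes in the table, 12782 were tested, and levels are given as CPM, the count scaled to a common library size by TMM. PLK2 RNA (GRCh38 chr5:58453982-58460260, minus strand) was at 3.32, 4.08 and 2.82 CPM in Vector replicates 1 to 3 and at 23428, 26161 and 21424 CPM in the PLK2 replicates. It made up between 2.12% and 2.55% of all counts in the PLK2 libraries, as the labels say. RNA from the plasmid and from the cells' own gene cannot be told apart. PLK2 is set aside below. Summed markers of epithelium and HEK293 cells (VIM and CDH2 included) were at 675 to 764 CPM in Vector and 651 to 698 CPM in PLK2 libraries. By contrast, 8 named microglial and macrophage markers, all that the table lists of 16, summed to 3.39 to 3.85 and 3.47 to 3.68 CPM. Replicates were unequal: chi-square per gene was 17.9 and 10.9 between Vector replicate 1 and Vector replicates 2 and 3, 2.70 between those, and 1.63 to 2.81 within the PLK2 group.

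With PLK2 overexpressed, 22 genes other than PLK2 rose and none fell, by edgeR's quasi-likelihood test at a Benjamini-Hochberg adjusted p below 0.05. With PLK2 that is 0.18% of the genes tested. Without adjustment, 1440 genes had p under 0.05, 553 of them lower with PLK2. The 22 include parts and inhibitors of the NF-kB pathway, the early-response factor EGR1, the Hippo target ANKRD1, stress regulators, and histone, dynein and lipid-enzyme genes. Their log2 fold changes ran from 0.42 to 4.34 with a median of 1.07, and 13 were at least 2-fold. In each of the 22 the lowest PLK2 library lay above the highest Vector library, against 9.97% of all genes tested. Of all genes 10.2% stood apart in the other direction, 20.1% in either. These are bulk RNA levels, so more RNA in every cell and a larger share of cells with the RNA cannot be told apart. Without Vector replicate 1 the test called 209 genes and without Vector replicate 2 it called 751, against 14, 12 and 10 without PLK2 replicates 1, 2 and 3.

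**Figure D1:**
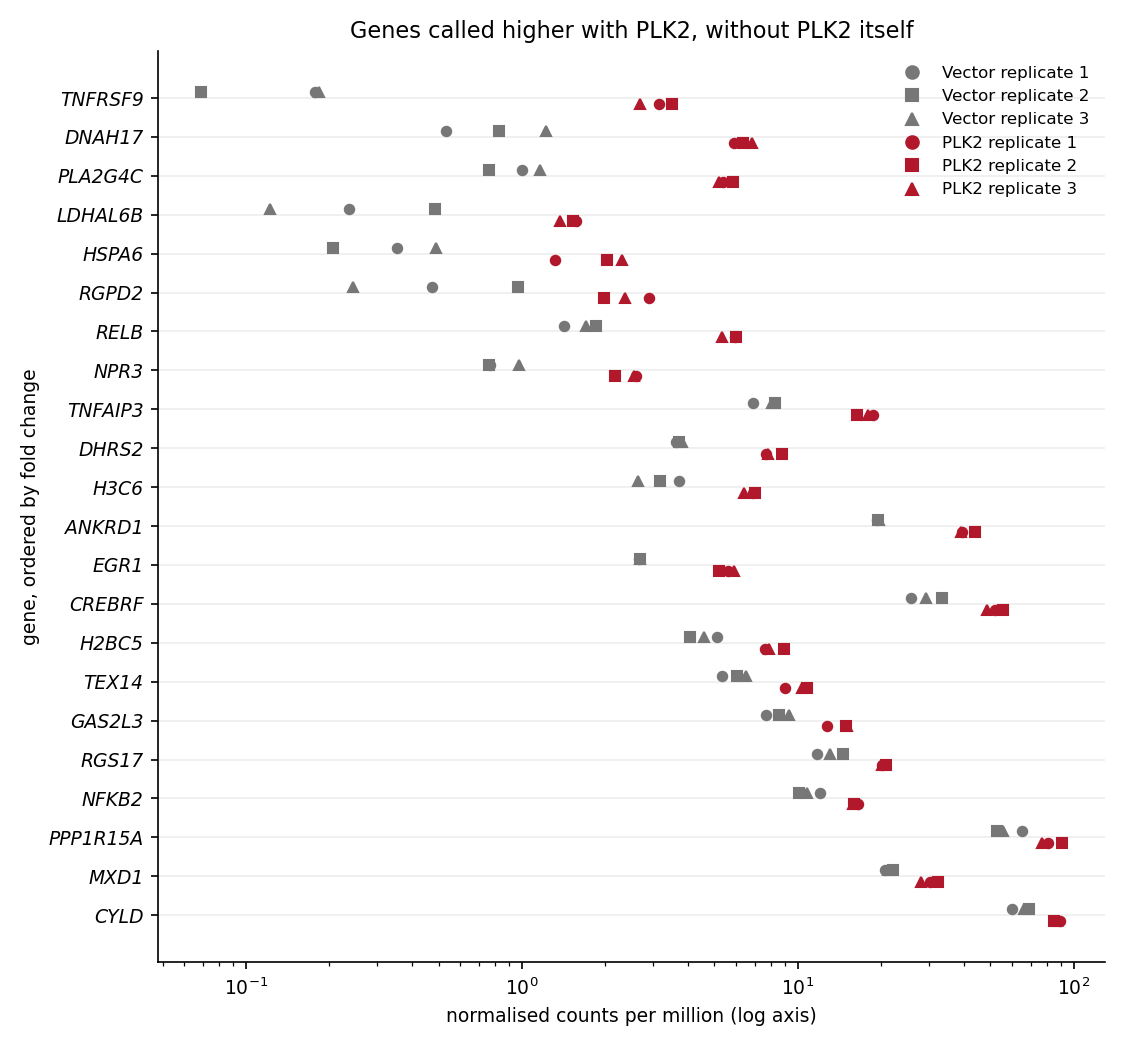
Level of the 22 called genes other than PLK2 in each library, in normalised CPM on a log axis, with Vector libraries in grey and PLK2 libraries in red and a marker shape for each replicate number. In every gene the 3 red points lie to the right of the 3 grey points, with the widest gap for TNFRSF9.

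The NF-kB pathway held the most called genes of any list examined. Of 65 tested members, of 92 named, 5 rose: the receptor gene TNFRSF9, the subunit genes RELB and NFKB2, and the inhibitor genes TNFAIP3 and CYLD. The median log2 fold change of the list was 0.03, beside 0.00 over all genes. TNFRSF9 encodes 4-1BB, a TNF-family receptor that co-stimulates T cells (chr1:7915894-7943165, minus strand). It was at 0.178, 0.069 and 0.184 CPM in Vector and at 3.16, 3.52 and 2.69 CPM in PLK2 libraries. That is 7 counts in all against 148, a log2 fold change of 4.34 ± 0.33 (SE, edgeR adjusted p = 2.87e-05). It was the only receptor called of 10 tested, of 16 named. Its Vector level alone was too low for testing, so it was tested only because of its level with PLK2. The same held for LDHAL6B, HSPA6 and SPOCK1, described below.

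RELB (chr19:45001430-45038198, plus strand) and NFKB2 encode the partners of the non-canonical dimer. RELB was at 1.42, 1.87 and 1.72 CPM in Vector libraries and at 5.93, 6.01 and 5.31 CPM with PLK2, a log2 fold change of 1.79 ± 0.16 (edgeR adjusted p = 0.000145). NFKB2 was at 12.1, 10.1 and 10.8 CPM against 16.5, 16.0 and 15.9 CPM, a smaller change of 0.55 ± 0.09 (edgeR adjusted p = 0.0398). Without 1 of the libraries its adjusted p reached 0.265. The canonical subunits did not pass: RELA had a log2 fold change of -0.06 ± 0.09, NFKB1 of 0.04 ± 0.06 and REL of 0.37 ± 0.12 (edgeR adjusted p = 0.754, 0.800 and 0.317). REL was at 124 CPM in Vector replicate 1 and at 173 to 189 CPM in the other Vector libraries.

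TNFAIP3 encodes A20, a ubiquitin-editing enzyme that ends NF-kB signalling (chr6:137867188-137883312, plus strand). It was at 6.87, 8.30 and 8.09 CPM in Vector libraries and at 18.8, 16.5 and 18.1 CPM with PLK2, a log2 fold change of 1.20 ± 0.10 (edgeR adjusted p = 0.000121). CYLD, a deubiquitinase with a like role, was at 60.1 to 69.2 CPM against 85.1 to 89.0 CPM, a change of 0.42 ± 0.07 (edgeR adjusted p = 0.0340). Its call, like that of NFKB2, was lost when any 1 PLK2 replicate or Vector replicate 3 was left out. NFKBIA, which encodes IkBα, did not pass at 0.40 ± 0.09 (edgeR adjusted p = 0.152). None of 28 tested kinases and adaptors was called. IKBKB, which encodes IKKβ, had a log2 fold change of 0.01 ± 0.08 (edgeR adjusted p = 0.969), with 33.6 to 40.7 CPM in Vector and 35.3 to 38.3 CPM in PLK2 libraries. None of the 9 cytokine and adhesion targets high enough to test, of 28 named, was called either.

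Promoter sequence is shown for some of these genes because 5 of 65 tested members of 1 pathway were called. The sequences are from RefSeq on GRCh38.p14 and lie in the 250 bases before the RefSeq start, and RELB had no entry. The stretches of TNFAIP3 and TNFRSF9 lie inside the spans given above for these genes. Capitals mark matches to the kappaB consensus on either strand, which may overlap. In TNFAIP3 a pair of matches begins 67 and 55 bases before the start, and in TNFRSF9 overlapping matches on opposite strands begin 74 and 73 bases before it. NFKBIA, given for comparison, has a match at 81 bases. The windows are chr6:137867188-137867217 (plus strand), chr1:7940893-7940922 (minus strand) and, for the whole 250 bases of NFKBIA, chr14:35404750-35404999 (minus strand).
TNFAIP3: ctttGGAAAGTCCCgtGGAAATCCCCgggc
TNFRSF9: agctgtggtGGGAATTTCCCatgagacccc
NFKBIA: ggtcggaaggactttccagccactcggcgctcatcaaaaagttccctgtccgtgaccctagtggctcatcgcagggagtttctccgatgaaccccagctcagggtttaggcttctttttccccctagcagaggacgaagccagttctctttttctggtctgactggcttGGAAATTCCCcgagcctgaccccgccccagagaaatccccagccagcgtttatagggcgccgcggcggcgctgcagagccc
A match was present in 9.57% of all 27305 promoters of this length, in 11.6% of those of tested genes and in 9 of 53 tested members of the list. Among all called genes with an entry, PLK2 aside, 2 of 17 (11.8%) had a match. NFKB2 and CYLD had none in this window. A match describes the letters alone.

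EGR1 and ANKRD1 rose by about 2-fold. EGR1 is an immediate-early zinc finger factor induced through ERK and serum response factor (chr5:138465490-138469315, plus strand). It was at 2.67, 2.70 and 2.70 CPM in Vector libraries and at 5.62, 5.18 and 5.88 CPM with PLK2, a log2 fold change of 1.05 ± 0.14 (edgeR adjusted p = 0.00625). Without PLK2 replicate 3 its adjusted p was 0.0677. It was the only gene called of 52 tested in the immediate-early and ERK list, whose median log2 fold change was 0.00. NAB2, a corepressor of EGR factors, was lower in each PLK2 library (11.8 to 14.3 against 8.88 to 9.47 CPM) and missed the threshold at -0.52 ± 0.10 (edgeR adjusted p = 0.0735).

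ANKRD1 encodes a muscle and stress-responsive ankyrin-repeat protein and is a target of YAP with TEAD factors, the output of the Hippo pathway (chr10:90912096-90921276, minus strand). It was at 19.4, 19.5 and 19.8 CPM in Vector libraries and at 39.3, 43.8 and 39.3 CPM with PLK2, a log2 fold change of 1.06 ± 0.08 (edgeR adjusted p = 2.87e-05). No other gene of the 37 tested in the Hippo and TGF-beta list was called, and the list's median was -0.03. The promoter of EGR1 (250 bases, chr5:138465229-138465478, plus strand) and short stretches before the start of ANKRD1 (chr10:90921290-90921319 and chr10:90921198-90921227, minus strand) are given because each gene was called without the rest of its list. Capitals mark the CArG box, the serum response factor motif, in EGR1 at 105 and 83 bases before the RefSeq start. In ANKRD1 they mark GGAATG, the core of the TEAD motif, at 220 and 128 bases. The stretch at 128 bases lies inside the ANKRD1 span given above.
EGR1: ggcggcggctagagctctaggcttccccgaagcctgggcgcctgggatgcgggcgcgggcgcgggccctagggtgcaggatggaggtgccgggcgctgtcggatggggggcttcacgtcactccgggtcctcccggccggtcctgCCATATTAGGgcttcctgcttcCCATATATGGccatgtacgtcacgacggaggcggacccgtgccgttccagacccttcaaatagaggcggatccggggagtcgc
ANKRD1 (220 bases before the start): atcaccaccaaaGGAATGgccctctcacat
ANKRD1 (128 bases before the start): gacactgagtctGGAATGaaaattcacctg
A CArG box on either strand was found in 1.14% of all promoters and GGAATG in 11.9%.

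A dynein gene and 3 enzyme genes also rose. DNAH17, an axonemal dynein heavy chain (chr17:78423697-78577394, minus strand), was at 0.533, 0.830 and 1.23 CPM in Vector and at 5.87, 6.33 and 6.81 CPM in PLK2 libraries. Its log2 fold change was 2.87 ± 0.22 (edgeR adjusted p = 2.87e-05), and it was the only gene called of 82 tested axonemal and ciliary genes. PLA2G4C encodes a cytosolic phospholipase A2 that frees fatty acids from membrane lipids (chr19:48047843-48110817, minus strand). It was at 1.01, 0.761 and 1.16 CPM against 5.37, 5.82 and 5.19 CPM, a log2 fold change of 2.46 ± 0.18 (edgeR adjusted p = 2.87e-05). DHRS2, a short-chain dehydrogenase (chr14:23630115-23645639, plus strand), was at 3.61 to 3.80 CPM in Vector libraries and at 7.70 to 8.76 CPM with PLK2, a change of 1.12 ± 0.12 (edgeR adjusted p = 0.00111). In both enzyme lists these were the only calls, of 26 and 33 tested genes. LDHAL6B, a lactate dehydrogenase-like gene, rose by 2.42 ± 0.37 from 13 to 71 counts summed over 3 libraries (edgeR adjusted p = 0.0175).

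Among stress genes 3 rose. CREBRF, a regulator of the CREB3 factor of the endoplasmic reticulum stress response, was at 25.8, 33.3 and 29.1 CPM in Vector and at 51.9, 55.5 and 48.4 CPM in PLK2 libraries, a log2 fold change of 0.83 ± 0.09 (edgeR adjusted p = 0.00141). PPP1R15A (GADD34), which directs dephosphorylation of eIF2α, rose by 0.52 ± 0.09 (edgeR adjusted p = 0.0398) from 52.7 to 65.1 CPM to 76.9 to 90.6 CPM. Both belong to the unfolded protein and ATF4 list, where 54 other tested genes were not called and the median was -0.02. The heat-inducible HSPA6 was at 0.207 to 0.490 CPM in Vector and at 1.32 to 2.31 CPM in PLK2 libraries, a change of 2.38 ± 0.35 (edgeR adjusted p = 0.0145). It was the only one called of 70 heat shock and HSP90 genes.

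None of 23 HSP90 and co-chaperone genes was called, and their median log2 fold change was -0.06. HSP90AA1, which encodes HSP90α, was at 3209, 3887 and 3747 CPM in Vector and at 3918, 4089 and 3826 CPM in PLK2 libraries. The groups overlapped, with a log2 fold change of 0.13 ± 0.07 (edgeR adjusted p = 0.502). HSP90AB1 had a change of -0.05 ± 0.06 (edgeR adjusted p = 0.725).

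Of 19 tested clustered histone genes, of 58 named, 2 rose and 17 had a fold change above 0, beside 6232 of all 12781 genes without PLK2. The median log2 fold change was 0.33, and 0.16 to 0.41 under the alternatives. The list's median log2 deviation from the gene mean was 0.00, -0.26 and -0.27 in Vector replicates 1 to 3. In PLK2 replicates 1 to 3 it was 0.15, 0.29 and 0.04. H3C6 was at 3.73, 3.18 and 2.63 CPM in Vector and at 6.88, 7.03 and 6.38 CPM in PLK2 libraries, a change of 1.08 ± 0.15 (edgeR adjusted p = 0.00757). H2BC5 rose by 0.82 ± 0.13 (edgeR adjusted p = 0.0214). Histone genes of a type are near copies, so counts may be shared among them, and RNA was selected with oligo(dT) beads, which takes the polyadenylated forms. Neither was called when PLK2 replicate 2 or 3 was left out.

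The remaining called genes serve varied roles. NPR3, the natriuretic peptide clearance receptor, rose by 1.53 ± 0.22, GAS2L3, a linker of actin and microtubules, by 0.74 ± 0.11 and RGS17, a regulator of G protein signalling, by 0.64 ± 0.09. TEX14, a kinase-like protein of germ cell bridges, rose by 0.76 ± 0.12 and MXD1, a partner of MAX that opposes MYC, by 0.50 ± 0.08. Their edgeR adjusted p ran from 0.0139 for NPR3 to 0.0237 for MXD1, and each was lost without 2 or more of the libraries in turn. RGPD2 rose by 2.13 ± 0.34 (edgeR adjusted p = 0.0237) while its near-identical copy RGPD1 had a fold change of -1.19 ± 0.35. Their summed level was 2.60, 3.92 and 2.30 CPM in Vector and 3.16, 3.37 and 3.60 CPM in PLK2 libraries, which overlap, so the RGPD2 call is uncertain.

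Each library was next examined for a trend with GC content, the share of G and C in a gene's transcripts. In Vector replicate 1 the median log2 deviation from the gene mean went from -0.26 in the 10% of genes with the lowest GC content to 0.16 in the 10% with the highest, a span of 0.415. In Vector replicates 2 and 3 the span was -0.147 and 0.02, and in PLK2 replicates it was -0.09, -0.128 and -0.0466. The PLK2 to Vector fold change followed: its median went from 0.13 in the first of these sets to -0.05 in the last, and across genes it correlated with GC content at r = -0.314. Removing each library's trends with GC content and length brought this r to 0.0239. The trends were fitted to these same libraries, so such a low r follows from the fit and is no check of it.

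**Figure D2:**
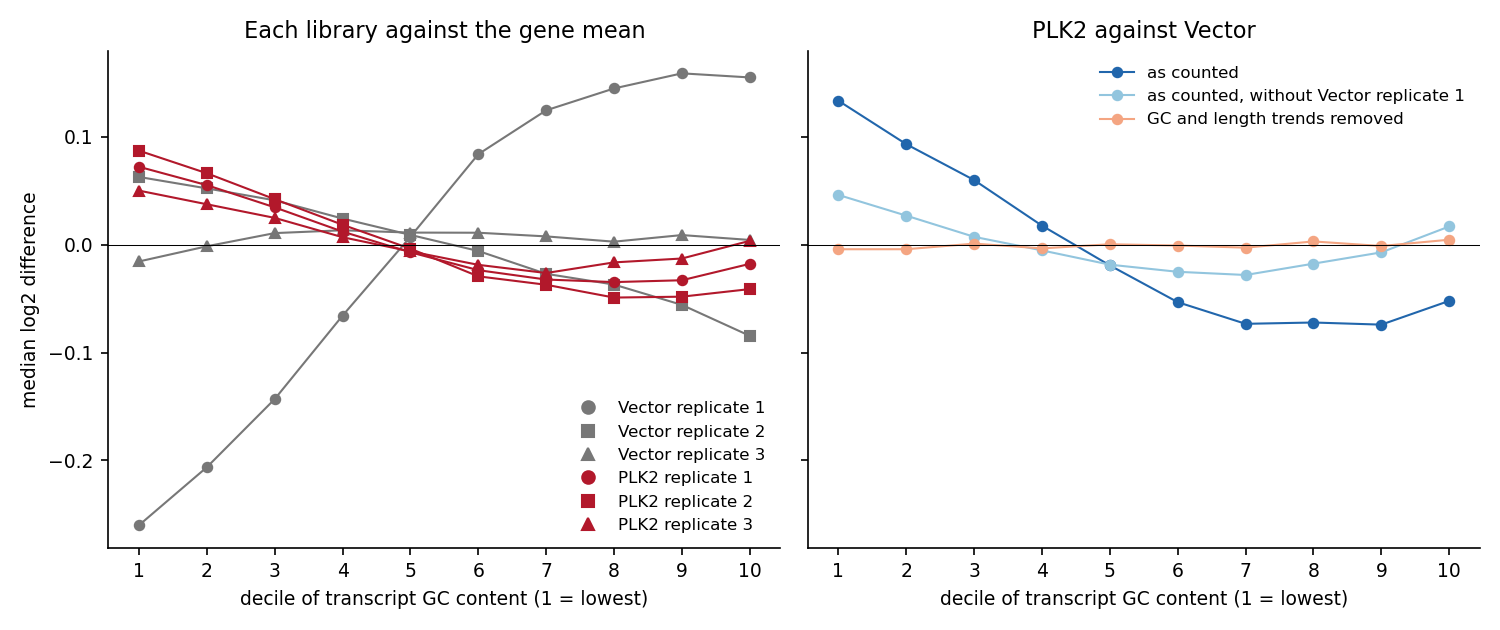
Left, the median log2 difference of each library from the gene mean in 10 equal groups of genes ordered by GC content, with Vector in grey and PLK2 in red. Right, the median log2 fold change of PLK2 against Vector in the same groups as counted, without Vector replicate 1, and with trends removed. Vector replicate 1 climbs from -0.26 to 0.16 and the fold change runs the other way until the trends are removed.

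All 22 genes were called again with the trends removed, and their fold changes moved by at most 0.17 on the log2 scale. The largest shift was in RGS17, a gene of 35.9% GC, from 0.64 to 0.47. With the trends removed and each library then left out in turn, 21 of the 22 were called every time. The exception was MXD1, whose adjusted p reached 0.106. As counted, without that removal, ANKRD1, PLA2G4C, TNFRSF9, DNAH17, TNFAIP3, RELB and DHRS2 were called under every other setting in which they were tested, and CREBRF under all but the test on TPM (adjusted p = 0.062 by limma). EGR1 was lost when PLK2 replicate 3 was left out. H3C6, NPR3, GAS2L3 and HSPA6 were each lost without 2 of the libraries in turn, and the other 9 without 3 or 4, PLK2 replicates among them. The limma test on TPM also lost GAS2L3, RGS17, H2BC5, TEX14, MXD1, CYLD, NFKB2 and PPP1R15A.

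With the trends removed 147 genes were called, 1.16% of 12708 with a known GC content. Of these 141 were higher (1.11%) and 6 lower (0.0472%) with PLK2. Of the 147, 111 changed by less than 1.5-fold, and 124 were called only with the trends removed. The procedure removes any difference between the groups that runs with GC content or length, whatever its source. When trends were removed only among libraries of a group, so that such differences were kept, 1177 genes were called, 905 higher and 272 lower.

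**Figure D3:**
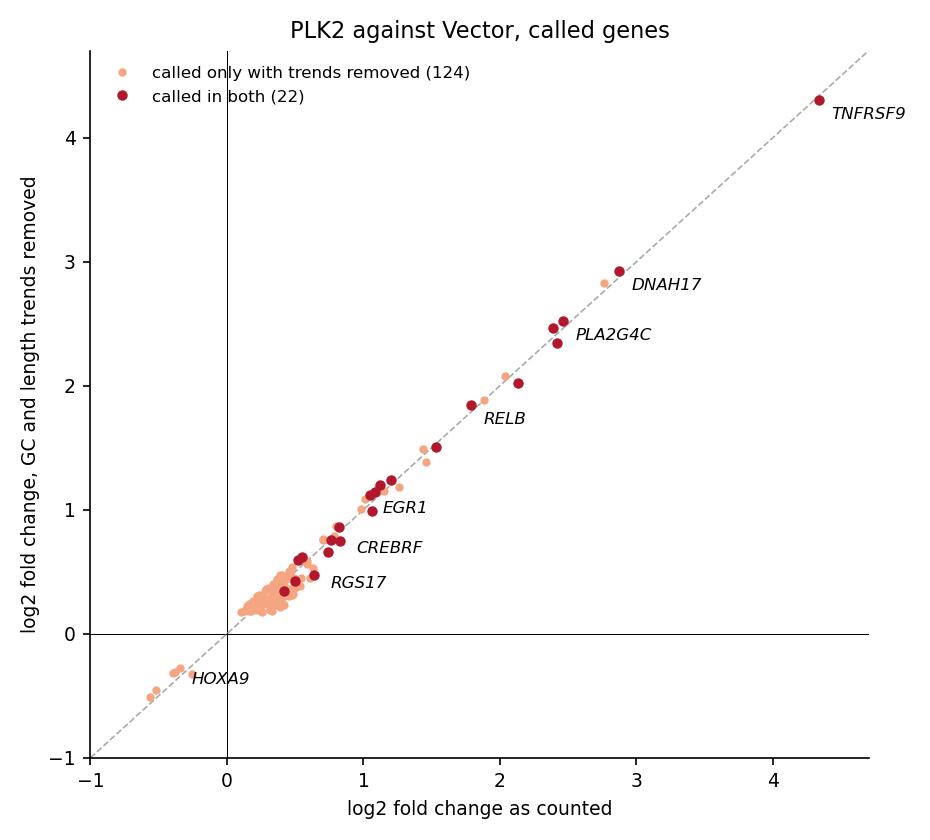
Log2 fold change of PLK2 against Vector as counted (horizontal) and after removal of the GC content and length trends (vertical) for the genes called in both (22, dark red) and only with trends removed (124, orange), without PLK2. Points lie near the dashed line of equal values, and the 6 lower genes sit at the bottom left.

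**Figure D4:**
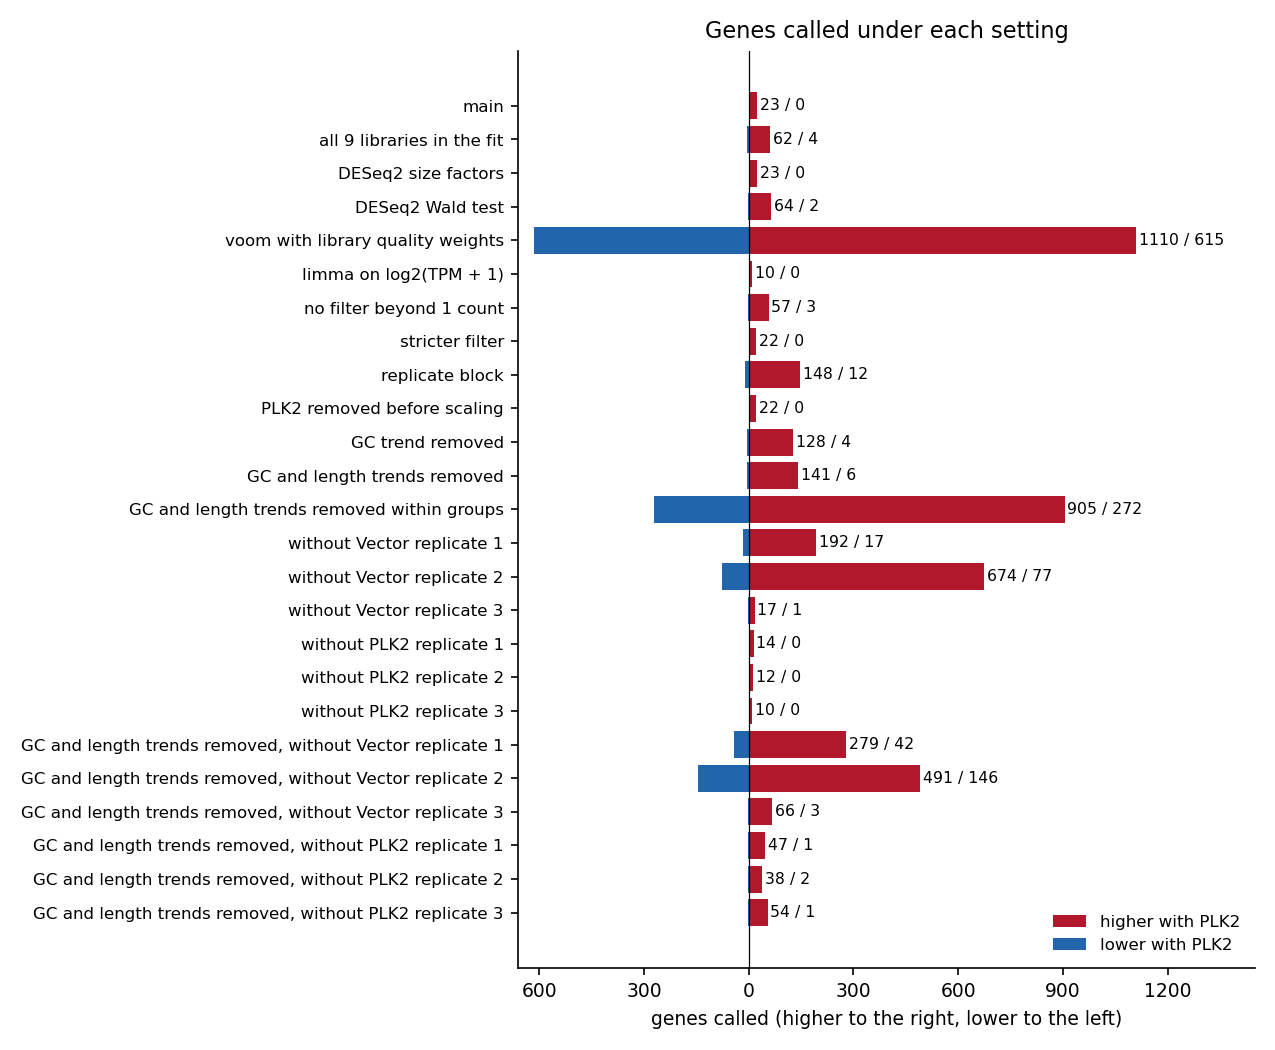
Number of genes called higher (red, to the right) and lower (blue, to the left) with PLK2 under the test as reported and under each alternative, PLK2 included, with both numbers printed beside each bar. Higher calls outnumber lower ones in every setting, from 10 against 0 to 1110 against 615.

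Mitosis was the list with the most genes called once trends were removed. Of 119 tested members none passed as counted, with a median log2 fold change of 0.13. Above 0 were 94, beside 6232 of all 12781 genes without PLK2. With trends removed 20 rose, against 1.11% of all genes, and the median was 0.10 with 93 above 0. They were 2 of 22 mitotic kinases and entry genes (AURKA and PLK1), 5 of 36 kinetochore and centromere genes, 5 of 26 motor and spindle genes and 8 of 35 genes of condensin, cohesin and mitotic exit. HJURP, the chaperone of centromeric histone CENP-A (chr2:233833416-233854566, minus strand), was at 64.3, 60.4 and 65.1 CPM in Vector and at 80.9, 81.0 and 79.9 CPM in PLK2 libraries. Its log2 fold change was 0.35 ± 0.06 as counted (edgeR adjusted p = 0.0538) and 0.38 ± 0.05 with trends removed (edgeR adjusted p = 0.000526).

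CENPE, a kinetochore motor, shows the effect of Vector replicate 1 on a gene of low GC content (35.7%). It was at 147 CPM there, at 231 and 203 CPM in the other Vector libraries, and at 283 to 309.9 CPM in PLK2 libraries. Its log2 fold change went from 0.61 ± 0.12 to 0.45 ± 0.05 with trends removed, while its edgeR adjusted p went from 0.0984 to 0.000499. KIF18A and HMMR, both of the spindle, rose by 0.39 ± 0.05 and 0.37 ± 0.05, AURKA by 0.31 ± 0.05 and TOP2A by 0.33 ± 0.05 with trends removed (edgeR adjusted p = 0.000526, 0.000531, 0.00676 and 0.00534). With each library then left out in turn, CENPE, KIF18A and HMMR were called in all 6 fits, and AURKA and TOP2A in 3. The number of mitosis genes called with trends removed ranged from 5 without PLK2 replicate 2 to 38 without Vector replicate 1, with 37, 9, 6 and 8 without Vector replicate 2, Vector replicate 3, PLK2 replicate 1 and PLK2 replicate 3. The G1/S and DNA replication list, of the preceding phases, had no call among 60 genes in either fit and a median of 0.00.

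Short promoter stretches of 7 of these mitosis genes are shown, picked from those with a TTTGAA match. As counted, the groups overlapped for PLK1 (edgeR adjusted p = 0.489). With trends removed and each library left out in turn, MKI67, PRC1 and PLK1 were called in 2 of 6 fits and INCENP in 3. Capitals mark TTTGAA, the core of the cell cycle homology region found in many late cell cycle promoters. Each stretch is 30 bases from RefSeq (GRCh38.p14), from the window of 250 bases before the RefSeq start. Those of HMMR, KIF18A, PRC1, INCENP and PLK1 lie inside the GENCODE spans of these genes.
HJURP (chr2:233854629-233854658, minus strand): gacgcaaatttgTTTGAAaggcccaatcag
HMMR (chr5:163460592-163460621, plus strand): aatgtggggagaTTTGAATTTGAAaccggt
KIF18A (chr11:28108157-28108186, minus strand): gctgaggaaagtggcttgggTTTGAAtatt
MKI67 (chr10:128126453-128126482, minus strand): ttagcgccagaaTTTGAAtcttcgttttcg
PRC1 (chr15:90994538-90994567, minus strand): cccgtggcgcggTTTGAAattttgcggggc
INCENP (chr11:62123981-62124010, plus strand): ggattggctgagccttcagtTTTGAAaatc
PLK1 (chr16:23678848-23678877, plus strand): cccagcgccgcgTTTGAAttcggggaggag
On either strand TTTGAA was found in 13.6% of all promoters, in 8.36% of those of tested genes, in 38 of 99 tested mitosis genes and in 11 of 17 of those called with trends removed that had an entry. CCAAT was found in 33.0% of all promoters and in 65 of the 99. These shares describe the list, and no test was made of them.

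**Figure D5:**
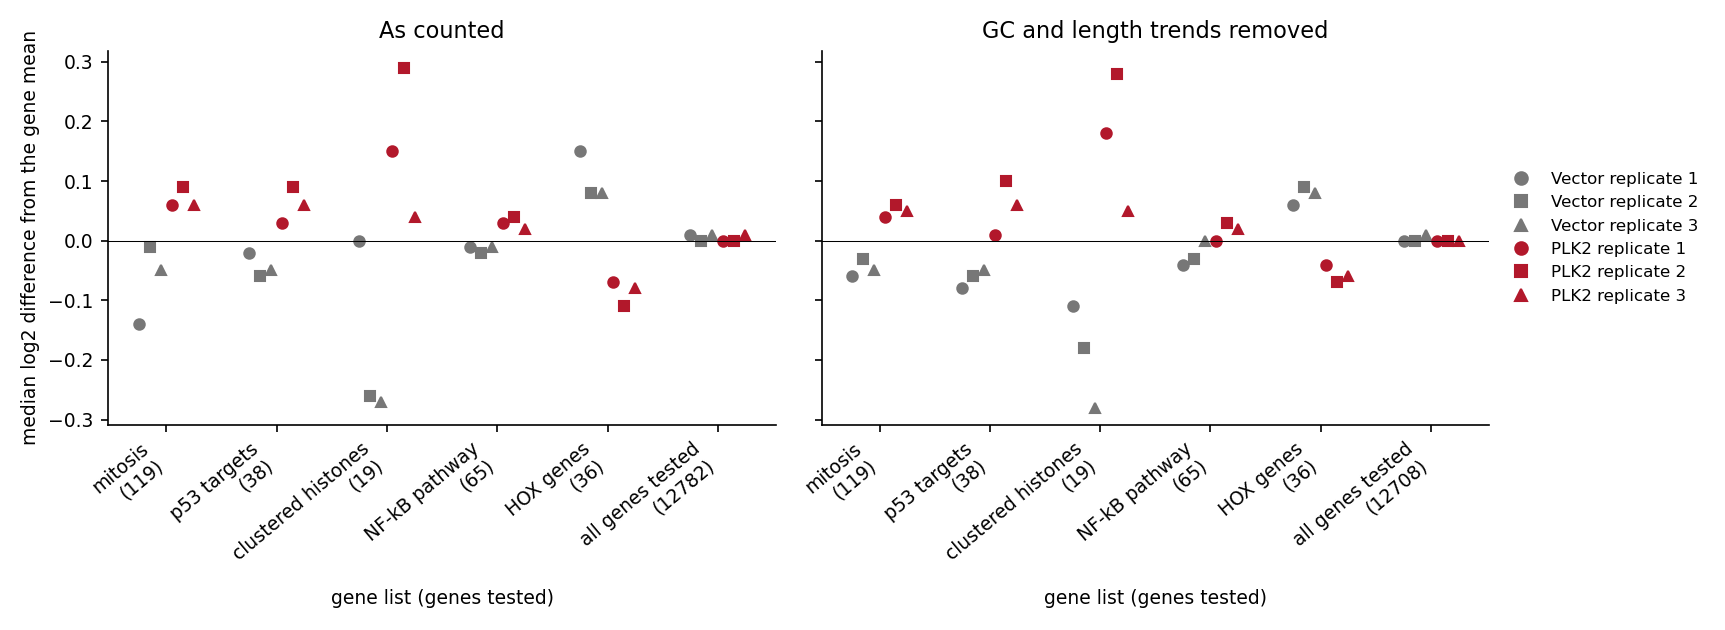
Median log2 difference of each library from the gene mean for 5 gene lists and for all genes tested, as counted (left) and after removal of the GC content and length trends (right), with Vector in grey, PLK2 in red and a marker shape for each replicate number. For mitosis the Vector libraries run from -0.14 to -0.01 on the left and from -0.06 to -0.03 on the right, below all PLK2 libraries in both, and for HOX genes they lie above them.

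HOX genes, which set body position and of which HEK293T cells express many, lay on the other side. Of 36 tested, 33 had a log2 fold change at or below 0 as counted, and the median was -0.16. With trends removed 8 were above 0 and the median was -0.09. Over all genes without PLK2, 6232 of 12781 were above 0 as counted and 6304 of 12707 with trends removed. None passed as counted. HOXA9 (chr7:27162435-27175180, minus strand) was at 115, 101 and 104 CPM in Vector and at 82.2, 83.8 and 80.4 CPM in PLK2 libraries, a log2 fold change of -0.38 ± 0.07 (edgeR adjusted p = 0.0545). With trends removed it fell by 0.31 ± 0.04 on the log2 scale (edgeR adjusted p = 0.0013), as did HOXA13 by 0.32 ± 0.07 (edgeR adjusted p = 0.0413). They were the 2 called lower of 36, beside 0.0472% of all genes. HOXA9 overlaps HOXA10 on the same strand, so reads of the pair may be shared. The other genes lower with trends removed were NAB2, the zinc finger gene ZNF503, the adhesion receptor gene ADGRB2 and LRRC20. Of these 6, HOXA9 alone was called with trends removed and each library left out in turn.

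Of 38 tested p53 targets and family members, none passed as counted, and the median was 0.13. A fold change above 0 was seen in 32, beside 6232 of all 12781 genes without PLK2. With trends removed 4 rose, beside 1.11% of all genes, and 32 were above 0. GADD45A, a growth arrest gene, was at 20.3 to 22.6 CPM in Vector and at 27.6 to 28.9 CPM in PLK2 libraries, a log2 fold change of 0.47 ± 0.06 (edgeR adjusted p = 0.000934). TP63, FBXW7 and PPM1D rose by 1.49 ± 0.29, 0.24 ± 0.05 and 0.22 ± 0.05 (edgeR adjusted p = 0.0166, 0.0286 and 0.0416). GADD45A was called with each library left out in turn, TP63 in 3 of these 6 fits and FBXW7 and PPM1D in 2. The number called in the list was 9, 7 and 1 without Vector replicates 1, 2 and 3 and 2, 1 and 1 without PLK2 replicates 1, 2 and 3. CDKN1A and MDM2 did not pass (edgeR adjusted p = 0.0679 and 0.0674). HEK293T cells carry the SV40 large T antigen, which binds p53.

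In other lists the trend removal added calls, most of them higher with PLK2. NFKBIA rose by 0.48 ± 0.07 (edgeR adjusted p = 0.00336), which made 6 of 65 NF-kB genes, beside 1.11% of all genes called higher. In the immediate-early list MAFG, ATF3, FOSL2, DUSP8 and SPRED2 joined EGR1, with log2 fold changes between 0.30 and 0.76, and NAB2 fell by 0.45 ± 0.09. That made 6 of 52 higher and 1 lower, beside the same 1.11% and 0.0472% of all genes. Of the 52, 29 were above 0 with trends removed, and the median was 0.03. DDIT3 (CHOP), a stress-induced factor, rose by 0.51 ± 0.09 (edgeR adjusted p = 0.0126), and it overlaps MBD6 on the opposite strand, which rose by 0.44 ± 0.08. The histone genes H2AC18 and H2BC12 rose by 0.76 ± 0.12 and 0.25 ± 0.05 (edgeR adjusted p = 0.00336 and 0.027). Of 513 zinc finger genes 15 rose and 1 fell, beside 1.11% and 0.0472% of all genes, and the number called ranged from 3 without PLK2 replicate 1 to 43 without Vector replicate 2, with 25, 6, 4 and 4 without Vector replicates 1 and 3 and PLK2 replicates 2 and 3. Of the added genes named in this paragraph, H2AC18 alone was called with each library left out in turn. No call was made in either fit among 84 cytosolic ribosomal, 79 oxidative phosphorylation, 44 proteasome, 74 DNA repair, 36 cholesterol and fatty acid, 41 interferon and antigen presentation, 28 Notch or 45 WNT genes.

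The libraries of PLK2(D223N) share the Vector controls, so values are only set side by side. PLK2 RNA was at 10679.6 to 13978 CPM there. TNFRSF9 was at 0.12 to 0.19 CPM, RELB at 1.29 to 1.54 CPM, DNAH17 at 0.43 to 1.36 CPM and PLA2G4C at 0.86 to 1.49 CPM, below every PLK2 library. EGR1 was at 5.31 to 6.64 CPM and RGPD2 at 0.93 to 2.1 CPM, which overlap the PLK2 libraries.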

How the data were processed

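Per the labels' protocols, polyadenylated RNA of HEK293T cells was sequenced. Per the submitters' processing notes, the authors used Bowtie2, RSEM 1.3.1 and DESeq2 1.4.5 with GRCh38.p13. Strand setting and annotation: not given in the sources used here. Deposited values used were the authors' estimated counts per gene, rounded to whole numbers, and deposited TPM in 1 alternative. Another 18 per-library columns were not used.

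Genes were kept by filterByExpr, scaled by TMM and tested in edgeR 4.0.16 (glmQLFit and glmQLFTest, robust, two-sided) on the 6 libraries with the group as the only term. Fold changes are log2 values with standard errors (SE). Each gene's GC content and length were taken from GENCODE release 29 transcripts, and the libraries' trends were fitted by loess (span 0.3) and entered as offsets. Versions were Python 3.11.15, R 4.3.3, DESeq2 1.42.0 and limma 3.58.1. The fits were tested on simulated data.

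The comparison, gene lists and tests were chosen with earlier results of these data known. Named genes are PLK2, HSP90AA1 and IKBKB, all called genes that stay called with trends removed, up to 15 called genes a direction with the largest change, up to 6 list members with the smallest p, and up to 15 genes a direction called only with trends removed. RELA, NFKB1, RGPD1 and HSP90AB1 were added with their values known. Same-numbered libraries of the groups did not deviate together (r = 0.057, 0.01 and -0.025), so replicate numbers were not used as pairs. Nothing beyond the word replicate says how cultures were kept apart, so p-values measure the spread between these libraries. Alternatives were other scalings, tests, filters and trends, a replicate block, all 9 libraries, PLK2 left out and each library left out.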

Additional observations from a re-analysis of the deposited data

Results flagged for a closer look

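The PLK2(D223N) libraries lie outside the comparison and were looked at for the called genes. In a fit to all 9 libraries, PLK2 RNA was higher there than in Vector by 11.83 ± 0.16 on the log2 scale, as the labels say. EGR1 was the other called gene that passed there, with a log2 fold change of 1.18 ± 0.14 over Vector (edgeR adjusted p = 0.00228). It was at 6.64, 5.31 and 6.33 CPM in the D223N libraries, above the Vector range of 2.67 to 2.71 CPM. The 21 remaining called genes had edgeR adjusted p between 0.509 and 0.982 in that contrast, which shares its controls with the comparison above. Not all were level with Vector. ANKRD1 was at 22.41 to 25.34 CPM against 19.43 to 19.85 CPM, a change of 0.30 ± 0.08. RGPD2 and LDHAL6B had changes of 1.32 ± 0.42 and 1.05 ± 0.44, while RELB, HSPA6, DNAH17 and NFKB2 had negative values.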

How the results depend on the processing

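The number of genes called moved with the setting far more than the leading genes did. Against 23 as counted, PLK2 included, it was 66 with all 9 libraries, 66 by the DESeq2 Wald test, 1725 with voom library quality weights, 10 by limma on log2(TPM + 1) and 60 with no filter beyond 1 count. It was 132 with the GC trend removed, 147 with GC and length trends removed and 1177 when these were removed within groups. Leaving out 1 library gave between 10 and 751 calls, the highest without Vector replicate 2. With trends removed as well, an alternative added after seeing the data, it was 321, 637 and 69 without Vector replicates 1, 2 and 3, and 48, 40 and 55 without PLK2 replicates 1, 2 and 3. A term for the replicate number as a block gave 160 calls, 148 of them higher, although same-numbered libraries did not deviate together. DESeq2 size factors, a stricter filter and removal of PLK2 before scaling gave 23, 22 and 22.

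Of 2738 single-gene values under alternatives, 56 lost a call, 819 gained one and 12 changed sign, all in genes near 0. RELA was at 0.01 with voom weights and with either trend removal, 0.02 without Vector replicate 1 (as counted and with trends removed), and 0.04, 0.06 and 0.02 with trends removed without Vector replicate 2, PLK2 replicate 1 and PLK2 replicate 2. As counted, leaving out 1 library gave RELA values from -0.13 to 0.02. IKBKB was at -0.01, -0.05 and -0.02 without Vector replicate 2, Vector replicate 3 and PLK2 replicate 2, and at most at 0.10 with another left out. HSP90AB1 was at 0.01 with trends removed and Vector replicate 1 left out. The cause was not tested. Genes of few counts, such as TNFRSF9 with 7 counts in all Vector libraries, have fold changes of limited precision.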

Other observations

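Some genes called only with GC content and length trends removed belong to groups not described above. SQSTM1, which encodes the autophagy receptor p62, rose by 0.26 ± 0.04 on the log2 scale (edgeR adjusted p = 0.00229), and HMOX1, haem oxygenase, by 0.32 ± 0.06 (edgeR adjusted p = 0.0155). They were the 2 called of 33 tested NRF2 and antioxidant genes, beside 1.11% of all genes called higher. Of the 33, 9 had a fold change above 0 with trends removed, and the median was -0.02. As counted, the groups overlapped for HMOX1, at 49.3 to 65.7 CPM in Vector and 63.8 to 68.1 CPM in PLK2 libraries. SQSTM1 was called with each library left out in turn and HMOX1 without 2 of the 6. FLCN and FNIP1, which encode partners in a complex that regulates growth signalling at the lysosome, rose by 0.37 ± 0.07 and 0.24 ± 0.04 (edgeR adjusted p = 0.00999 and 0.0109). The remodeller gene CHD2 rose by 0.27 ± 0.05, the demethylase-family gene JMJD1C by 0.32 ± 0.05 and CREB5, a CRE-binding factor, by 0.44 ± 0.07 (edgeR adjusted p = 0.00819, 0.0027 and 0.00336). With each library left out in turn, FLCN and CHD2 were called in 4 of 6 fits, FNIP1 in 3, and JMJD1C and CREB5 in 5.

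Larger changes were seen in a few genes of very low level. SPOCK1, a matrix proteoglycan gene, was at 0 to 0.245 CPM in Vector and at 0.688 to 0.831 CPM in PLK2 libraries, or 5 against 36 counts. FILIP1L was at 0.761 to 1.54 against 2.78 to 3.12 CPM, and BTN3A3, a butyrophilin gene, at 1.38 to 1.47 against 2.38 to 3.09 CPM. With trends removed their edgeR adjusted p was 0.0265, 0.0215 and 0.0176, and none was called with every library left out in turn.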
